A study of Mus musculus with 8 samples.

Results

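Chondroitin sulfate proteoglycans and the tenascins that bind them were examined in induced immature oligodendrocytes (iOLs) with and without Med23, a subunit of the Mediator complex, which links transcription factors to RNA polymerase II. The 10 genes were chosen by name, as the cores of the chondroitin sulfate matrix of oligodendrocyte lineage cells, from the 24346 genes listed. The choice was made with earlier results of these data known. The genes are the lecticans Ncan, Bcan, Vcan and Acan, the link protein gene Hapln2, the tenascins Tnr and Tnc, and the transmembrane proteoglycans Cspg4, Cspg5 and Ptprz1. RNA-seq was performed on 8 libraries of iOLs, 4 labelled WT (Med23+/+) and 4 labelled MED23KO (Med23-/-). All came from OPCs, the precursors of oligodendrocytes, which were immunopanned for PDGFRα from the brains of mice at postnatal day 7 and expanded with PDGF-AA (10 ng/mL) together with NT-3 (1 ng/mL). Both genotypes were then kept for 1 day in medium with 15 nM T3, the thyroid hormone that drives differentiation, and 10 ng/mL of the cytokine CNTF. The Med23-/- cells came from Med23 fl/fl;Olig1-cre mice, in which Cre made under Olig1 acts in the Olig1 lineage, and the study describes its control littermates as Med23 fl/fl without Cre, which the labels of these libraries do not state. No source used here says whether the 4 replicates of a genotype came from separate animals, so the p-values measure the spread between these libraries, which may be technical.

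Lecticans are large secreted proteoglycans that bind hyaluronan at one end, through a contact that link proteins stabilize, and tenascins at the other. With these partners they form a hydrated mesh around neurons, at nodes of Ranvier and in glial scars. Chondroitin sulfate chains are sugar chains built on the core protein in the Golgi and then sulfated, and they are best known in the central nervous system for restraining axon growth and oligodendrocyte maturation. OPCs are marked by Cspg4 (NG2) and make several of the other cores, and Tnr is made by oligodendrocytes during myelination.

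The study proposes that Med23 affects binding of the acetyltransferase P300, and histone acetylation, at targets of the transcription factor Sp1. These include enhancers as well as promoters. Sp1 binds GC boxes, so the sequence upstream of the start site is shown for some members. They are Tnr, which fell without a GC box in its window, Acan and Tnc, with the largest falls, and Cspg4 and Bcan, which rose. Enhancers and P300 are not covered. The sequences are from RefSeq on GRCm38.p6 (mm10), 5′ to 3′ on the strand of the gene, and end before the annotated transcript. The coordinates are chr1:159523519-159523768 (+) for Tnr, chr7:79052976-79053225 (+) for Acan, chr4:64047016-64047265 (-) for Tnc, chr9:56864854-56865032 (+) for Cspg4 and chr3:88000357-88000606 (-) for Bcan. Capitals mark the GC box GGGCGG, or CCGCCC where it lies on the other strand, and the stretch of 10 capitals in Acan holds a pair of overlapping boxes.
Tnr: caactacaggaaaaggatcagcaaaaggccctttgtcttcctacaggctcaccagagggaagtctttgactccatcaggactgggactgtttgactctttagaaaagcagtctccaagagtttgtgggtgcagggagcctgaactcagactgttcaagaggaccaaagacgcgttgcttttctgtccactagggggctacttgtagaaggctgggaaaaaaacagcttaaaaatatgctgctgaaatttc
Acan: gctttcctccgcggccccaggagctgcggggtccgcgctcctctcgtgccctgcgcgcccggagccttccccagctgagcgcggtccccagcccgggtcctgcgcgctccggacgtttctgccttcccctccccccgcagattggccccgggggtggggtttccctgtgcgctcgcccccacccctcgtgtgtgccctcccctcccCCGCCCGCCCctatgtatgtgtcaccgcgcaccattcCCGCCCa
Tnc: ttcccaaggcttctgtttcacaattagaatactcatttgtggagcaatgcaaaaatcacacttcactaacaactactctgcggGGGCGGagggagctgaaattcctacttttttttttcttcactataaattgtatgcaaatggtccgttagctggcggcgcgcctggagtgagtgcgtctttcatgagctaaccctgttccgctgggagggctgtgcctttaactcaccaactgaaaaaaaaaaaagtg
Cspg4: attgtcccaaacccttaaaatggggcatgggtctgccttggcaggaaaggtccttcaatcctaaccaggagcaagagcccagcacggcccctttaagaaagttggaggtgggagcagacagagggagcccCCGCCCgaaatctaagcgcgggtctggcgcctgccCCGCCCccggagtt
Bcan: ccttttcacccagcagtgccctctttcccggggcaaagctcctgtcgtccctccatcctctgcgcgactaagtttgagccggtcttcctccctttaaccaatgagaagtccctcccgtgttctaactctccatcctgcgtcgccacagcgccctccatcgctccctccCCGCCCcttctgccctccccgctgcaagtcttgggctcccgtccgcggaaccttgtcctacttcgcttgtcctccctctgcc

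RefSeq windows, which run from 250 bases before the start site to 50 bases after it, were matched for 9 of the 10 members and held a GC box on either strand in 7 of them. Tnr and Hapln2 were the members without one, and Cspg5 had no window. Of all 32851 windows 35.7% held a GC box, and of the 11940 windows of genes tested here 63.6% did. The members with a box thus included genes that rose (Bcan, Cspg4), genes that fell (Ncan, Vcan, Acan, Tnc) and Ptprz1, which was not called. The box is a match of 6 letters, not a measured binding site. The Acan window had a GC content of 74.0%, against 48.0% in Tnr. The Sp1 transcript stood at 21.2 ± 1.23 FPKM (mean ± SD of 4 libraries, as for all such values here) with Med23 and at 25.0 ± 3.40 FPKM without it, and was not called (limma adjusted p = 0.119).

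Values are FPKM, the number of fragments assigned to a gene scaled by its length and by library size, as the authors deposited them. The table gives no depth for the libraries, which is therefore unknown, and no counting interval is given. Differences are Med23-/- minus Med23+/+ on the scale of log2(FPKM + 1), which understates the change of low genes. They were tested with limma for the 12328 genes that averaged 1 FPKM or more, and genes whose adjusted p (Benjamini-Hochberg) was under 0.05 were called. In the libraries between 15941 and 16469 genes were above 0. Med23 itself averaged 12.5 ± 0.225 FPKM under the label WT and 8.26 ± 0.247 FPKM under MED23KO (log2 fold change -0.55, limma adjusted p = 0.000353), so its transcript was lower there but still detected. FPKM is given for the whole gene, so it does not show whether a part of the transcript was lost. The study reports the deletion of Med23 at the protein level, by western blot of primary OPCs from Med23 fl/fl;Olig1-cre mice. Replicates 1 and 2 of both genotypes lay apart from replicates 3 and 4 on the second principal component (15.6% of the variance), and the labels name no batch for these numbers.

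The libraries held the markers of the labelled lineage. Over 9 OPC markers the summed level was 788.0 to 911.7 FPKM in Med23+/+ and 1109 to 1215 FPKM in Med23-/- libraries, and 5 of the 9 were higher and 3 lower. Of all genes tested 15.9% were called higher and 14.1% lower, and the count of each marker list is to be read beside these shares. Over 12 oligodendrocyte markers it was 1595 to 1930 against 435.6 to 743.5 FPKM, all 10 markers tested were lower, Opalin was under 1 FPKM, and Aspa was listed at 0 in every library. The landmarks of these stages moved apart, with Pdgfra, the PDGF receptor of OPCs, at 120.7 ± 17.2 against 334.3 ± 9.59 FPKM (limma adjusted p = 2.33e-05), and the myelin gene Mbp at a log2 fold change of -2.19 (adjusted p = 2.89e-05). Markers of other cell types were present as well. The sum over 10 neuron markers was 209.0 to 227.2 FPKM in Med23+/+ and 299.3 to 398.6 FPKM in Med23-/- libraries, and 9 of the 10 were higher. Map2 was the most abundant of them, at 161.1 against 201.6 FPKM on average. The sum over 11 astrocyte markers was 249.4 to 304.3 against 160.2 to 207.1 FPKM, with 4 lower and 2 higher of the 10 tested and Gjb6 under 1 FPKM. Of these astrocyte markers S100b, Fgfr3 and Sox9 are also made in the oligodendrocyte lineage. S100b, the most abundant of the astrocyte markers in Med23+/+, averaged 124.6 against 17.5 FPKM, and the lower sum came from it. Microglia markers were near 0, with 9 of 10 under 1 FPKM (sums of 8.09 to 9.31 against 10.1 to 13.2 FPKM), as were 5 of 7 endothelial markers (3.51 to 4.24 against 2.39 to 3.94 FPKM) and 5 of 8 markers of fibroblasts and pericytes (1.44 to 12.7 against 3.70 to 20.5 FPKM). In bulk RNA fewer cells of a type and less RNA per cell cannot be told apart.

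Among the 10 members, 9 passed the filter on low values. In Med23-/- iOLs 5 were lower (Ncan, Vcan, Acan, Tnr and Tnc), 3 were higher (Bcan, Cspg4 and Cspg5) and Ptprz1 was not called. Over all genes tested 14.1% were called lower and 15.9% higher, 30.0% in all. Past a 2-fold change stood Acan, Tnr and Tnc among the lower members and Cspg4 and Cspg5 among the higher ones, where 1.75% and 2.98% of all genes tested stood. The libraries of the genotypes did not overlap for the 8 called members, as for 31.6% of all genes tested. A two-sided exact permutation test of 4 against 4 gave each of the 8 its smallest possible p, 0.0286. Any gene without overlap gets this value, so it adds no further support. The median difference of the 9 members was -0.54 on the log2 scale, against -0.01 over all genes tested.

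**Figure D1:**
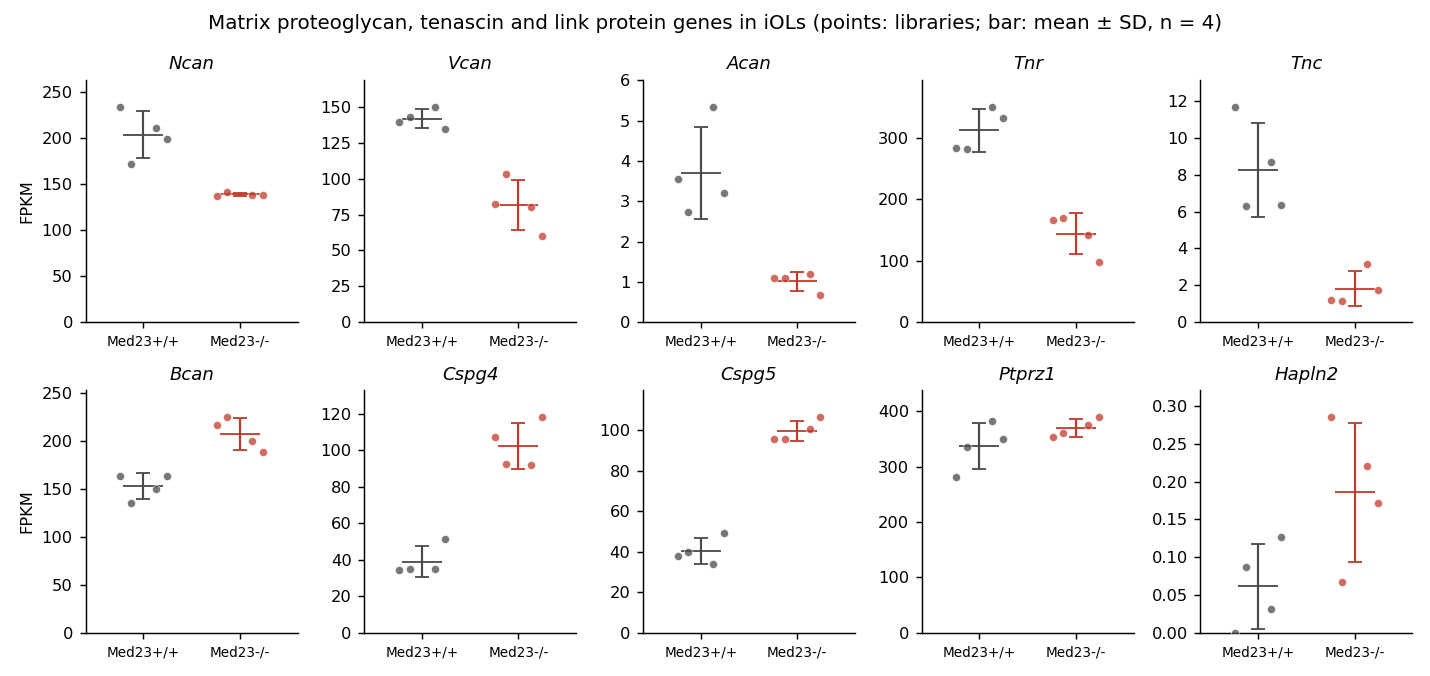
FPKM of each of the 10 members, on a linear axis of its own from 0, in the 4 Med23+/+ (grey) and 4 Med23-/- (red) libraries. Points are libraries and bars the mean ± SD. The groups are apart for 8 members, and they overlap for Ptprz1 and Hapln2.

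The 4 lecticans did not move together. Ncan, Vcan and Acan fell and Bcan rose. Ncan (neurocan, chr8:70093085-70120873, minus strand), a lectican best known from neurons and from OPCs, had 234.4, 172.0, 210.9 and 198.8 FPKM in Med23+/+ replicates 1 to 4 and 137.2, 141.5, 138.7 and 138.6 FPKM in Med23-/- replicates 1 to 4. The Med23-/- libraries lay close together, all below the lowest Med23+/+ library. The means were 204.0 ± 26.0 and 139.0 ± 1.80 FPKM, a log2 fold change of -0.54 (SE 0.10, limma adjusted p = 0.00274). Vcan (versican, chr13:89655312-89742509, minus strand), whose V2 isoform is found in white matter, had 139.2, 143.0, 150.2 and 134.7 FPKM in Med23+/+ and 82.3, 103.3, 80.3 and 60.3 FPKM in Med23-/- libraries. The 2nd Med23-/- library was the highest and the 4th the lowest of that genotype, and none reached the Med23+/+ range. Vcan thus had 141.8 ± 6.59 against 81.5 ± 17.6 FPKM, a log2 fold change of -0.81 (SE 0.14, limma adjusted p = 0.00224). FPKM is given for the whole gene, so the versican isoforms are not separated.

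Acan (aggrecan, chr7:79053483-79115099, plus strand), the core of cartilage matrix and of perineuronal nets, was the least abundant lectican. It had 3.56, 2.72, 5.35 and 3.21 FPKM in Med23+/+ and 1.10, 1.09, 1.19 and 0.671 FPKM in Med23-/- libraries. The means of 3.71 ± 1.15 and 1.01 ± 0.233 FPKM gave a log2 fold change of -1.21 (SE 0.17, limma adjusted p = 0.000871) and a ratio of 3.67. Bcan (brevican, chr3:87987531-88000230, minus strand), the lectican most restricted to the brain, went the other way. It had 162.7, 134.8, 149.9 and 163.0 FPKM in Med23+/+ and 216.1, 224.2, 200.0 and 187.8 FPKM in Med23-/- libraries, so the lowest Med23-/- library was above the highest Med23+/+ library. The log2 fold change was 0.44 (SE 0.09, 95% confidence interval 0.23 to 0.65, limma adjusted p = 0.00648), the smallest change among the 8 called members. Ncan had the next smallest, with an interval of -0.76 to -0.33.

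These changes shifted the make-up of the lectican transcripts. The 4 lecticans summed to 502.1 ± 36.9 FPKM in Med23+/+ libraries and 428.6 ± 34.5 FPKM in Med23-/- libraries, and the ranges of 452.5 to 539.7 and 387.3 to 470.1 FPKM overlapped. Ncan held the largest share of the sum in Med23+/+ iOLs, 40.5 ± 2.27%, followed by Bcan with 30.4 ± 1.55% and Vcan with 28.4 ± 2.56%. In Med23-/- iOLs Bcan led with 48.3 ± 0.875%, followed by Ncan with 32.6 ± 2.44% and Vcan with 18.9 ± 2.62%. The Bcan share ran from 29.0 to 32.6% in the Med23+/+ and from 47.6 to 49.5% in the Med23-/- libraries. Acan held 0.735 ± 0.202% and 0.235 ± 0.0466%. Shares of 1 sum are bound to each other, so they are given as a description, with no test.

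**Figure D2:**
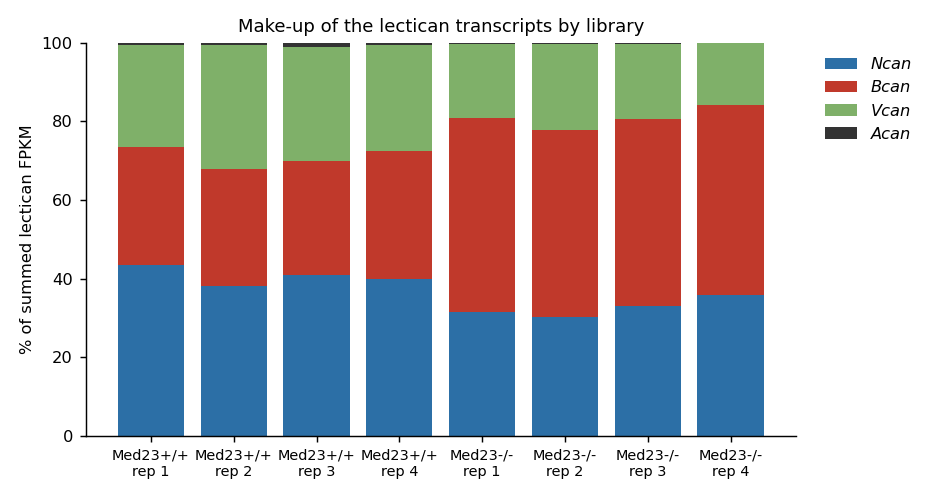
Share of the summed FPKM of Ncan, Bcan, Vcan and Acan, in percent, held by each of these lecticans in each library, as stacked bars that add to 100. Bcan takes 29.0 to 32.6% in the Med23+/+ libraries and 47.6 to 49.5% in the Med23-/- libraries.

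Link proteins lock lecticans onto hyaluronan, and each lectican gene has a link protein gene as its neighbour. Hapln2 (Bral1, chr3:88021750-88027583, minus strand), known from nodes of Ranvier of mature myelinated fibres, lies 21519 bases from Bcan. It had 0, 0.0869, 0.0311 and 0.127 FPKM in Med23+/+ and 0.285, 0.0668, 0.221 and 0.172 FPKM in Med23-/- libraries. The genotypes overlapped, and Hapln2 did not pass the filter on low values. In a fit of 18429 genes without the filter, where 19.8% of genes were called, its log2 fold change was 0.16 (SE 0.06, 95% confidence interval 0.02 to 0.30, limma adjusted p = 0.113). The neighbour of Ncan, Hapln4 (Bral2), was 2222 bases away and moved down with it, from 5.27 ± 0.570 to 2.96 ± 0.626 FPKM (log2 fold change -0.67, limma adjusted p = 0.00395). Hapln3, whose annotated end lies 2 bases from that of Acan, had 0.841 ± 0.436 against 2.29 ± 0.964 FPKM, opposite in direction to Acan (log2 fold change 0.82, limma adjusted p = 0.0241), with overlapping libraries. The Hapln3 call rests on single libraries, since limma gave an adjusted p of 0.0673 without Med23+/+ replicate 3, 0.0648 without Med23+/+ replicate 4 and 0.0579 without Med23-/- replicate 1. Hapln1, 43659 bases from Vcan, was at most 0.200 FPKM in Med23+/+ and 0.253 FPKM in Med23-/- libraries. Link protein transcripts were thus far less abundant than those of Ncan, Bcan and Vcan in every library.

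Both tenascins fell. Tenascins are multimeric glycoproteins that bind lecticans and cell surface receptors. Tnr (tenascin-R, chr1:159523769-159931729, plus strand), the tenascin of oligodendrocytes and of perineuronal nets, had 284.0, 282.0, 351.0 and 332.3 FPKM in Med23+/+ and 167.0, 170.0, 142.5 and 97.7 FPKM in Med23-/- libraries. Every Med23+/+ library was far above the highest Med23-/- library. The means were 312.3 ± 34.7 and 144.3 ± 33.4 FPKM, a log2 fold change of -1.14 (SE 0.17, limma adjusted p = 0.00110) and a ratio of 2.16. The difference was -0.74 between replicates 1 and 2 and -1.53 between replicates 3 and 4 of the genotypes. Without Med23-/- replicate 4 the log2 fold change was -0.96, under 2-fold.

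Tnc (tenascin-C, chr4:63959785-64047015, minus strand), made by immature astrocytes, OPCs and injured tissue, had 11.7, 6.30, 8.68 and 6.35 FPKM in Med23+/+ and 1.21, 1.16, 3.17 and 1.74 FPKM in Med23-/- libraries. It was the member with the largest change, 8.26 ± 2.55 against 1.82 ± 0.939 FPKM, a log2 fold change of -1.73 (SE 0.24, limma adjusted p = 0.000748) and a ratio of 4.54. It ranked 83 from the lowest log2 fold change among the 12328 genes tested. Tnr was the more abundant tenascin in each library, 24.3 to 52.3 times Tnc in Med23+/+ and 44.9 to 147.1 times in Med23-/- libraries, and these ranges overlap. Exons of both genes overlap an antisense gene, over 3.44% of the exonic length in Tnr and 2.27% in Tnc. Whether counting used strand is not stated, so these reads cannot be told apart. Beside these falls, the oligodendrocyte marker sum was lower in every Med23-/- library. The astrocyte marker sum was lower too, but through S100b, which is also made in the oligodendrocyte lineage. Of the 10 astrocyte markers tested 4 were lower, 2 were higher and 4 were not called. Beside S100b the lower ones were Gfap, Aqp4 and Fgfr3, with log2 fold changes of -1.71, -1.29 and -2.05. Their limma adjusted p was 0.0222, 0.0120 and 2.26e-05, and for Gfap 0.0571 without Med23-/- replicate 1. The higher ones were Sox9 and Slc1a2, at 2.67 and 0.67 (limma adjusted p = 4.16e-05 and 0.0222). Of these genes Fgfr3 and Sox9 are also made in the oligodendrocyte lineage. The part of the oligodendrocyte and astrocyte markers in the results for the tenascins and the lecticans was not tested.

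Of the transmembrane proteoglycans, the OPC markers Cspg4 and Cspg5 rose and Ptprz1 was not called. Cspg4 (NG2, chr9:56865033-56899870, plus strand), the surface proteoglycan by which OPCs are recognized and which is shed and lost as they mature, had 34.3, 34.7, 35.2 and 51.5 FPKM in Med23+/+ and 107.5, 92.7, 91.7 and 118.0 FPKM in Med23-/- libraries. Med23+/+ replicate 4 stood apart from the other 3 but well below every Med23-/- library. The means were 38.9 ± 8.38 and 102.5 ± 12.6 FPKM, a log2 fold change of 1.39 (SE 0.14, limma adjusted p = 0.000141) and a ratio of 2.63. Pericytes also make Cspg4, and their markers Pdgfrb, Rgs5 and Kcnj8 had means under 1 FPKM in both genotypes. These were 0.133, 0.115 and 0 FPKM in Med23+/+ and 0.336, 0.156 and 0.00814 FPKM in Med23-/-, with overlapping libraries. The part of pericytes in the result for Cspg4 was not tested. Cspg5 (neuroglycan C, chr9:110243783-110262576, plus strand), which carries an EGF-like domain and is made by neurons and OPCs, had 37.6, 40.0, 34.1 and 49.3 FPKM in Med23+/+ and 95.6, 95.7, 100.7 and 106.2 FPKM in Med23-/- libraries. Its log2 fold change was 1.30 (SE 0.11, limma adjusted p = 4.81e-05), the lowest adjusted p of the members, from means of 40.2 ± 6.49 and 99.6 ± 5.03 FPKM. The OPC and neuron marker sums were higher in every Med23-/- library as well. Of the 9 OPC markers Pdgfra rose the most, from 120.7 to 334.3 FPKM on average, and 5 were higher in all. Sox5, Sox6 and Matn4 were lower, at log2 fold changes of -0.85, -0.45 and -0.64, and Lhfpl3 was not called. The part of the OPC and neuron markers in the results for Cspg4 and Cspg5 was not tested.

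Ptprz1 (chr6:22875502-23052916, plus strand) encodes a receptor tyrosine phosphatase of OPCs whose secreted form is phosphacan. It was the most abundant member in both genotypes, with 281.2, 335.9, 382.3 and 350.3 FPKM in Med23+/+ and 353.9, 361.3, 374.9 and 389.3 FPKM in Med23-/- libraries. The Med23-/- libraries all lay above 3 of the Med23+/+ libraries and overlapped the highest one. The log2 fold change was 0.14 (SE 0.10, limma adjusted p = 0.344; two-sided exact permutation p = 0.2), with a 95% confidence interval of -0.09 to 0.37 that leaves a rise of that size possible. The receptor and the secreted forms come from 1 gene and are not separated by its FPKM.

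**Figure D3:**
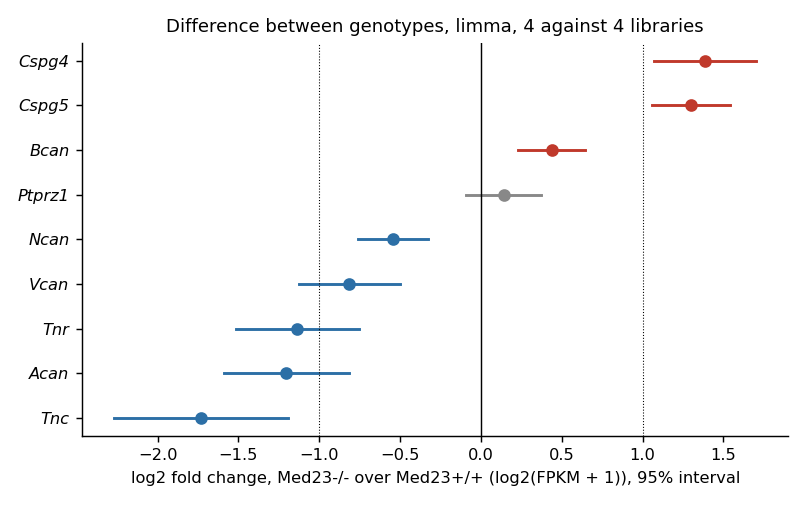
Log2 fold change of the 9 members tested, Med23-/- minus Med23+/+ on the scale of log2(FPKM + 1), with the 95% confidence interval from limma as a line and a dotted line at a 2-fold change on each side. The 5 members from Tnc (-1.73) to Ncan (-0.54) lie below 0, Ptprz1 spans 0, and Bcan, Cspg5 and Cspg4 (0.44 to 1.39) lie above it.

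FPKM is scaled by length, so the levels of the members can be ordered. In Med23+/+ iOLs Ptprz1 and Tnr were the highest, and their ranges overlapped. Ncan, Bcan and Vcan followed, with Bcan and Vcan overlapping, then Cspg5 and Cspg4, also overlapping, then Tnc, Acan and Hapln2, each below the range of the one before it. These first 5 members each had a mean above that of at least 96.2% of the genes tested, against 37.4% for Tnc and 19.2% for Acan. In Med23-/- iOLs Ptprz1 was followed by Bcan, then by Tnr and Ncan with overlapping ranges, then by Cspg4, Cspg5 and Vcan, where each overlapped the next. Tnc and Acan overlapped there. Tnr thus went from a level like that of Ptprz1 to below that of Bcan, and Cspg4 and Cspg5 from below Vcan to its level.

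The enzymes that build chondroitin sulfate were described with a list of 27 genes, 25 of them tested. In Med23-/- iOLs 6 were lower, 2 were higher and 17 were not called (median log2 fold change -0.18). Over all genes tested 14.1% were called lower and 15.9% higher, 30.0% in all, with a median of -0.01. The counts and medians of this list and of the lists below are to be read beside these shares. The lower ones were the uronyl 2-sulfotransferase Ust, the chain-starting enzyme Csgalnact1, the chondroitin 4-O-sulfotransferase Chst11, the transporter of the sulfate donor PAPS into the Golgi Slc35b2, the PAPS synthase Papss1 and the xylose kinase Fam20b. The higher ones were the 6-O-sulfotransferase Chst7 and Ugdh, which makes UDP-glucuronic acid.

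Ust had 72.6, 55.7, 74.8 and 61.7 FPKM in Med23+/+ and 13.6, 18.0, 16.5 and 12.5 FPKM in Med23-/- libraries, a ratio of 4.36 between the means (log2 fold change -2.06, SE 0.13, limma adjusted p = 1.96e-05). Csgalnact1 had 24.1, 22.8, 17.1 and 17.5 against 6.25, 10.2, 7.32 and 3.71 FPKM (log2 fold change -1.49, limma adjusted p = 0.00136). For both genes the lowest Med23+/+ library lay above the highest Med23-/- library. Chst11, the most abundant sulfotransferase of the list, went from 104.1 ± 12.9 to 66.2 ± 4.14 FPKM (log2 fold change -0.64, limma adjusted p = 0.00127), and Slc35b2 from 85.9 ± 6.16 to 53.1 ± 5.22 FPKM (-0.69, limma adjusted p = 0.000526). Papss1 and Fam20b fell by 0.32 and 0.29 on the log2 scale (limma adjusted p = 0.0149 and 0.0181). Chst7 had 5.59, 2.81, 2.86 and 4.19 FPKM in Med23+/+ and 15.3, 11.4, 14.0 and 20.5 FPKM in Med23-/- libraries, a ratio of 3.96 (log2 fold change 1.75, limma adjusted p = 0.000300). Chst3 and Chst15, which also add 6-O-sulfate, were not called (log2 fold changes -0.23 and -0.08, limma adjusted p = 0.175 and 0.601). Ugdh rose from 52.5 ± 6.72 to 105.8 ± 4.96 FPKM (log2 fold change 1.00, limma adjusted p = 0.000118), a value at the edge of the 2-fold limit that fell to 0.92 without Med23+/+ replicate 1. Among the chain polymerizing genes Chsy1, Chsy3, Chpf and Chpf2 none was called by limma, and the log2 fold changes ran from -0.26 to -0.07. Those that transfer the first sugars of the linker, Xylt1, Xylt2, B4galt7, B3galt6 and B3gat3, were not called either.

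**Figure D4:**
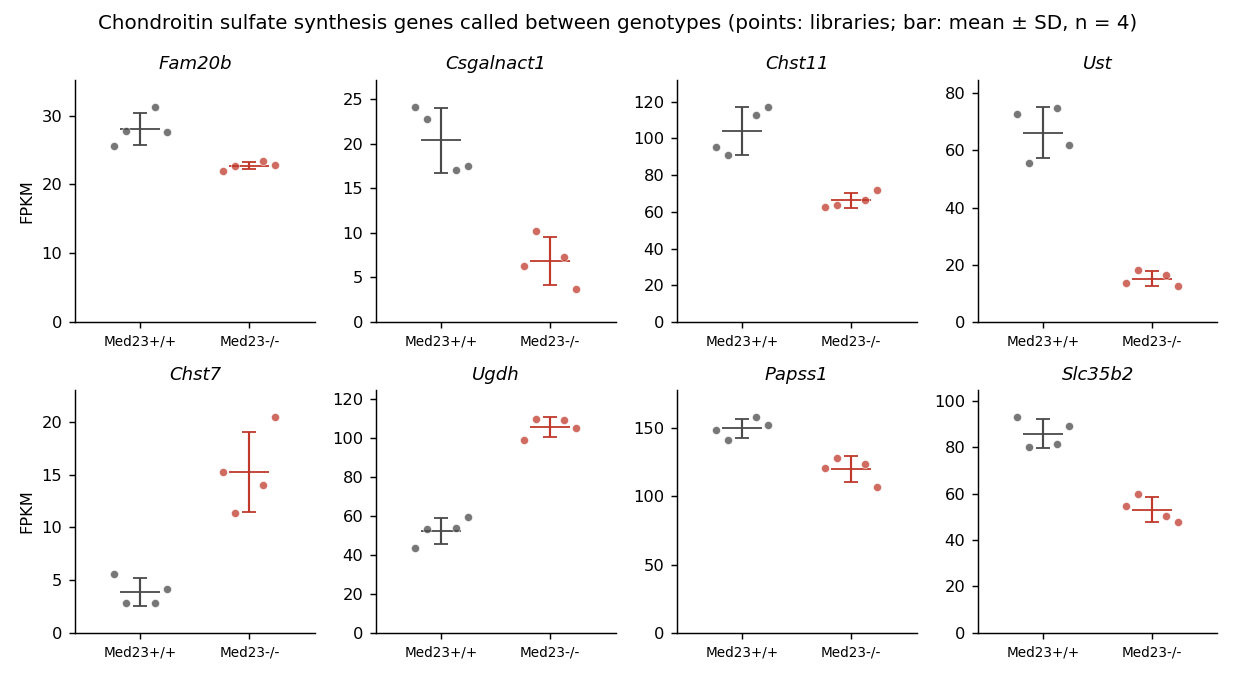
FPKM (linear axes from 0) of the 8 called genes that build chondroitin sulfate in the 4 Med23+/+ (grey) and 4 Med23-/- (red) libraries. Points are libraries and bars the mean ± SD. Ust and Csgalnact1 lie 4.36 and 2.97 times lower on average in Med23-/- libraries, and Chst7 lies 3.96 times higher.

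Receptors and ligands of the members comprised 19 genes, 16 of them tested, with 3 lower, 5 higher and 8 not called (median log2 fold change 0.25). Partners of Ptprz1, which itself was not called, were among the higher genes. Its ligand Mdk (midkine) was not called (log2 fold change 0.59, limma adjusted p = 0.269). Its other ligand Ptn (pleiotrophin) went from 100.3 ± 13.5 to 164.0 ± 19.2 FPKM (log2 fold change 0.71, limma adjusted p = 0.00204), and its binding partner Cntn1 (contactin 1), which Tnr also binds, from 227.9 ± 22.1 to 419.5 ± 19.0 FPKM (log2 fold change 0.88, limma adjusted p = 0.000154). The integrin chains Itga8 and Itga9, which bind tenascin-C, rose while Tnc fell. Itga9 had 3.37, 3.54, 2.44 and 3.71 FPKM in Med23+/+ and 14.3, 16.1, 16.1 and 13.4 FPKM in Med23-/- libraries (log2 fold change 1.91, limma adjusted p = 1.86e-05), and Itga8 went from 0.994 ± 0.297 to 6.29 ± 3.56 FPKM (log2 fold change 1.76, limma adjusted p = 0.00166). Itgb8 rose by 0.94 on the log2 scale (limma adjusted p = 0.000506), whereas Itgb1, the partner chain of Itga8 and Itga9, fell by 0.31 on the log2 scale (limma adjusted p = 0.0394), a call lost without any of 5 single libraries (adjusted p from 0.0781 to 0.103). Nfasc (neurofascin) and Nrcam, adhesion molecules of the node of Ranvier that bind tenascin-R and lecticans, fell from 71.8 ± 9.83 to 26.0 ± 4.26 FPKM and from 40.6 ± 3.06 to 27.9 ± 4.17 FPKM (log2 fold changes -1.44 and -0.53, limma adjusted p = 9.17e-05 and 0.00502). The phosphatase Ptprs, a receptor for chondroitin sulfate, was not called (123.1 against 148.8 FPKM on average, limma adjusted p = 0.0600).

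Hyaluronan genes, the anchors of the lecticans, gave 1 lower and 2 higher of 8 tested out of 13, with Hapln3 and Hapln4 among them. The synthases Has1, Has2 and Has3 were not called (log2 fold changes -0.40, 0.09 and -0.02). The hyaluronidase Tmem2 rose from 2.56 ± 0.644 to 6.68 ± 0.879 FPKM (log2 fold change 1.12, limma adjusted p = 0.000503). The hyaluronan receptor Cd44 was under 1 FPKM in each library.

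Proteases that cut lecticans or tenascins, with their inhibitors, gave 3 higher and 0 lower of 11 tested out of 17 by limma. Of all genes tested 15.9% were called higher and 14.1% lower. In the list 2 genes were lower at an unadjusted p under 0.05. Adamts9, which cuts versican and aggrecan, had 1.43, 1.55, 1.24 and 1.76 FPKM in Med23+/+ and 12.3, 10.4, 13.2 and 18.9 FPKM in Med23-/- libraries (log2 fold change 2.53, limma adjusted p = 1.91e-05). Its libraries did not overlap, and the Med23-/- mean was 9.17 times the Med23+/+ mean. Adamts1, another versican and aggrecan protease, rose by 0.72 on the log2 scale (limma adjusted p = 0.00708), and the membrane protease Mmp15 by 1.10 (limma adjusted p = 0.00436), or 0.89 without Med23-/- replicate 4. Adamts4, which cuts brevican and the other lecticans, was not called (1.62 against 1.09 FPKM, limma adjusted p = 0.101), nor was the inhibitor Timp3 (58.6 ± 7.09 against 46.4 ± 7.37 FPKM, adjusted p = 0.0747).

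Enzymes that break chondroitin sulfate down in lysosomes gave 2 lower and 1 higher of 9 tested. The sulfatase Arsb, which removes the 4-O-sulfate that Chst11 adds, fell from 56.8 ± 1.39 to 32.2 ± 6.17 FPKM (log2 fold change -0.82, limma adjusted p = 0.00147). Sgsh, a sulfatase best known from heparan sulfate, fell by 0.38 on the log2 scale (limma adjusted p = 0.0267), and its call was lost without any of 5 single libraries (adjusted p from 0.0506 to 0.0650).

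Other proteoglycan cores changed in both directions too. Of 13 heparan sulfate cores 12 were tested, with 2 lower and 3 higher. Gpc3 (glypican 3) had 8.88, 7.76, 8.05 and 8.36 FPKM in Med23+/+ and 0.848, 0.769, 1.08 and 0.765 FPKM in Med23-/- libraries, 9.54 times lower on average (log2 fold change -2.31, limma adjusted p = 2.95e-06). Hspg2 (perlecan), a core of basement membranes, fell from 15.4 ± 3.72 to 4.86 ± 0.269 FPKM (log2 fold change -1.46, limma adjusted p = 0.000146). Gpc1, Gpc5 and Sdc3 rose by log2 fold changes of 0.73, 0.76 and 0.55 (limma adjusted p = 0.000845, 0.00302 and 0.00747). Col18a1 had the highest log2 fold change of the cores, 0.81, and was not called (limma adjusted p = 0.0883). Of 13 other genes for proteins that can carry chondroitin sulfate and for further tenascins, 8 were tested, 2 were lower and 4 higher. The testicans Spock1 and Spock2 rose by 1.15 and 0.91 (limma adjusted p = 0.0111 and 0.00231), with overlapping libraries for Spock1, and Spock3 by 0.73 (adjusted p = 0.0398), a call lost without any of 5 single libraries (adjusted p from 0.0577 to 0.0998). App fell by 0.74 on the log2 scale as its relative Aplp2 rose by 0.72 (limma adjusted p = 0.00907 and 0.00365), and Podxl fell by 0.59 (adjusted p = 0.00616). The tenascin Tnxb reached at most 0.116 FPKM in any library and Tnn at most 0.0239 FPKM.

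**Figure D5:**
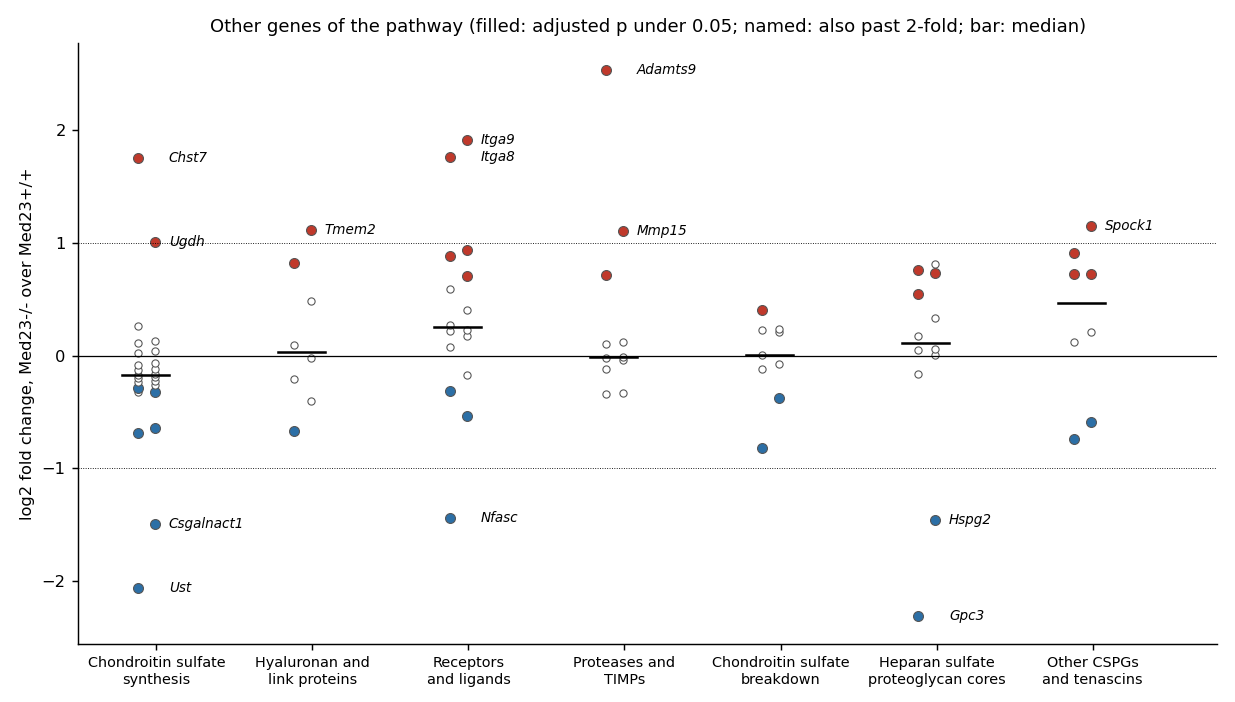
Log2 fold change (Med23-/- minus Med23+/+, log2(FPKM + 1) scale) of each tested gene in the 7 lists of related genes, with filled points for called genes, names for those also past 2-fold and a bar at the median of each list. Called genes lie on both sides of 0 in each list except the proteases, where the 3 called genes lie above it.

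The genes whose profile over the 8 libraries was most like that of a member were found by Pearson's r over log2(FPKM + 1), among genes that averaged 5 FPKM or more. The 8 points share the difference between the genotypes, so high values of r are common, and they are given as a description. Cspg5 was most like Pdgfra (0.996), F3 and Camk1, and Cspg4 most like Lnx1 (0.998), Scfd2 and Spry1. Tnr was most like Kif19a (0.996) and Cnp, which encodes a myelin protein. Vcan was most like 2810442N19Rik (0.996), Sgk1 and Cdc37l1, and Acan most like 2010111I01Rik (0.994), Plekhb1 and Aldh9a1. The nearest genes of Bcan were Trafd1 (0.988), Zfp512 and Cuedc1, those of Ncan were Plec (0.982), Slc25a17 and Timm10b, and those of Tnc were Mllt11 (0.981), Plekha1 and Atp5g1. Ptprz1, which was not called, was most like Grcc10 (0.969), Snrnp200 and Mmp16 (0.959).

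The members had the same direction in both sets of replicates. For the called members this was fixed beforehand, since their libraries did not overlap between the genotypes, so only the sizes are informative. The log2 difference between replicates 1 and 2 of the genotypes, and then between replicates 3 and 4, was -0.52 and -0.56 for Ncan, 0.57 and 0.31 for Bcan, and -0.61 and -1.02 for Vcan. It was -0.98 and -1.43 for Acan and -2.14 and -1.32 for Tnc, so Acan, Vcan and Tnr differed more in replicates 3 and 4, and Tnc and Bcan more in replicates 1 and 2. Cspg4 gave 1.51 and 1.27, Cspg5 1.28 and 1.31, and Ptprz1 0.22 and 0.06.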

How the data were processed

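RNA-seq reads of 4 Med23+/+ and 4 Med23-/- iOL libraries were checked with FastQC, trimmed with Cutadapt, aligned with Tophat2 (default settings, mm10) and quantified with cuffdiff under the options -b (bias correction) and -u (weighting of reads with several map positions) by the authors, who deposited FPKM values for 24346 genes. Tool versions, the annotation and the library normalization are not given in the sources used here. The table also holds means per genotype, fold changes, p-values and q-values, which were not used, and 0 library columns were left out.

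FPKM were transformed to log2(FPKM + 1), and the 12328 genes averaging 1 FPKM or more were fitted in limma 3.58.1 under R 4.3.3 (functions lmFit and eBayes with its trend option), with Benjamini-Hochberg adjustment over all genes tested, a threshold of 0.05 and, where stated, a fold change above 2. For single values an exact permutation test was used (two-sided, smallest possible p 0.0286). On simulated data for 12328 genes the comparison called 27 of 50 genes changed by 0.5 on the log2 scale, 44 of 50 by 1, 50 of 50 by 1.5 and 49 of 50 by 2, 0 of them in the wrong direction, and 13 unchanged genes. The changed genes all had a mean log2(FPKM + 1) above 2 and were far fewer than the 3695 called in the data. These rates therefore do not carry over to the real comparison or to lower genes.

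The members, the lists (7 of related genes with 111 genes in all, 7 of markers) and the tests were chosen with earlier results of these data known. Named were the members, Med23, Sp1, the link protein genes next to lecticans, the landmarks Mbp, Pdgfra and Gfap, in each list the genes past 2-fold and the ends of the range, and the 3 genes most like each member. Other genes of the lists were named after their values were seen, and a few items under this rule are not reported here. Coordinates are from GENCODE vM21 and promoter windows from RefSeq on GRCm38.p6. Alternatives were leaving out each library, the replicate number as a block, a covariate for replicates 1 and 2 against 3 and 4, library weights, a fit with no variance trend, scaling by median ratios, quantile normalization, filters at 5 FPKM and at none, and a pseudocount of 0.1. Sex as a covariate was added after seeing the data. Tables were made with Python 3.11.15, scipy 1.17.1, numpy 2.4.6, pandas 2.3.3 and, for figures, matplotlib 3.10.9.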

Additional observations from a re-analysis of the deposited data

Results flagged for a closer look

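Cspg4 in Med23+/+ replicate 4 stood apart from its group, at 51.5 FPKM against 34.3 to 35.2 FPKM in the other 3 libraries, a gap of 0.948 of the range of the group (Dixon's test at the 95% level). Spock3 in Med23-/- replicate 3 did so too, at 4.47 FPKM against 1.76 to 2.20 FPKM, a gap of 0.836 of the range. These were 2 of the 110 groups tested, over 55 genes, and chance alone flags about 1 in 20 groups. Without Med23+/+ replicate 4 the log2 fold change of Cspg4 stayed above 0 and called, and without Med23-/- replicate 3 that of Spock3 was 0.50 (limma adjusted p = 0.0595).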

How the results depend on the processing

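No value of a single gene changed direction under any alternative run. For the called members leaving out a library could not change it, since their libraries did not overlap between the genotypes. The replicate block and the covariate for replicates 1 and 2 against 3 and 4 leave the difference itself unchanged by design. Of the 324 counts of members and lists, 302 stayed within 1.5 times the reported count, and 914 of 941 values of single genes stayed on the same side of the threshold. The members called were the same 5 lower and 3 higher genes under all alternatives in which they were tested, except that Acan is under the filter at a mean of at least 5 FPKM, which leaves 4 lower and 2 lower past 2-fold. Leaving out 1 library at a time gave 5 to 5 lower and 3 to 3 higher members, and 2 to 3 lower and 2 to 2 higher past 2-fold. The log2 fold changes ranged from -0.62 to -0.45 for Ncan, 0.38 to 0.53 for Bcan, -0.94 to -0.68 for Vcan, -1.76 to -1.05 for Acan, -1.22 to -0.96 for Tnr, -2.19 to -1.57 for Tnc, 1.24 to 1.53 for Cspg4, 1.19 to 1.41 for Cspg5 and 0.06 to 0.22 for Ptprz1 (limma adjusted p from 0.194 to 0.686 for Ptprz1 and at most 0.0217 for the others). The lists were less stable, since few genes decide each count. At a mean of at least 5 FPKM, where fewer genes are tested, hyaluronan and link proteins had 0 lower and 0 higher, breakdown enzymes 1 lower, heparan sulfate cores 1 lower, and the other cores and tenascins 1 lower and 2 higher. Under quantile normalization hyaluronan and link proteins had 2 lower, receptors and ligands 8 higher, proteases 1 lower and breakdown enzymes 2 higher, and the cause was not tested. Breakdown enzymes also had 2 higher with library weights and with replicates 1 and 2 against 3 and 4 as a covariate. Without 1 library, hyaluronan and link proteins had 1 to 2 lower and 1 to 3 higher, proteases 0 to 1 lower and breakdown enzymes 1 to 2 lower. Papss1 was not called under quantile normalization (limma adjusted p = 0.101). Spock3 was not called in 7 alternatives. With the replicate number as a block the members had 5 lower and 3 higher (3 and 2 past 2-fold), synthesis enzymes 7 lower, receptors 6 higher and heparan sulfate cores 4 higher, Col18a1 among them (adjusted p = 0.00773). The deviations of same-numbered libraries correlated at 0.130, -0.096, -0.026 and 0.159, and those of other pairs at -0.179 to 0.1625. Values this small neither show a pairing by number nor exclude it. The number of all genes called ran from 2758 (without Med23+/+ replicate 3) to 4077 (library weights), against 3695 as reported. At a mean of at least 5 FPKM 45.8% of calls were higher, against 53.0%. The depth is unknown, so values near 0, such as those of Hapln2, carry no stated error beyond the spread of 4 libraries.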
